A study of Mus musculus with 8 samples.

Results

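The genes described here encode the ligands and receptors of the TGF-beta and activin branch of the TGF-beta superfamily in the mouse heart, with a pair of its intracellular inhibitors. The 10 genes were taken by their symbols on the array: the ligand genes Tgfb1, Tgfb2 and Tgfb3, the activin subunit genes Inhba and Inhbb, the receptor genes Tgfbr1, Tgfbr2 and Tgfbr3, and the feedback genes Smad7 and Skil. Each had 1 probe set with a single symbol, and all 10 were among the 15086 genes tested of 22180 measured. RNA was taken from whole hearts of male mice of the C57Bl6N strain, 1 week after their aorta had been narrowed by surgery (TAC, transverse aortic constriction), which loads the left ventricle with pressure. There were 4 CITED4 knockout hearts and 4 floxed control hearts, and every heart in both groups had undergone TAC, so no unoperated heart enters the comparison. The sources used here do not give the age of the mice, the Cre driver or whether the controls carried Cre. The labels number the samples without saying that each came from another animal, and every p-value refers to the spread between these 8 samples, which may be technical. A heart below therefore means a sample.

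TGF-beta is secreted as a latent complex with its own propeptide and a latent TGF-beta binding protein, and is released by integrins, thrombospondin or proteases. The free ligand binds the type II receptor TGFBR2, which recruits and phosphorylates the type I receptor TGFBR1, while TGFBR3 (betaglycan) is a co-receptor that presents ligand, above all TGF-beta 2. Activins are dimers of inhibin beta subunits and use their own receptors, and both branches signal through SMAD2, SMAD3 and SMAD4. SMAD7 blocks the type I receptor and SKIL (SnoN) represses SMAD-driven transcription, and both are induced by the pathway that they restrain. In the pressure-loaded heart the pathway is known for turning resting fibroblasts into matrix-producing myofibroblasts. CITED4 is a nuclear partner of CBP and p300, which also serve as co-activators of SMADs.

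The regulatory sequence at an annotated start of Tgfb2, Inhba, Tgfbr2 and Tgfb1 is printed here. The first 3 had the smallest p-values of the 10 genes, and Tgfb1 is the isoform set beside Tgfb2. Of the 10 genes, 6 had an entry that could be printed from the RefSeq promoter table (GRCm38.p6), which holds 250 bases before and 50 bases after one annotated start of a gene. The windows are chr1:186705940-186706239 on the minus strand for Tgfb2, chr13:16011601-16011900 on the plus strand for Inhba, chr9:116175314-116175613 on the minus strand for Tgfbr2 and chr7:25686752-25687051 on the plus strand for Tgfb1. Those of Tgfb2 and Inhba lie inside the annotated genes (chr1:186622787-186709697 and chr13:16004256-16031609), so their start is not the outermost start of the gene. Each is written 5′ to 3′ along the gene, with capitals at matches on either strand to 7 searched motifs: the Smad-binding element CAGAC, its palindrome GTCTAGAC, the AP-1 site TGANTCA, the cAMP response element TGACGTCA, the E-box CACGTG, the TATA box TATAAA and the GC box GGGCGG.
Tgfb2: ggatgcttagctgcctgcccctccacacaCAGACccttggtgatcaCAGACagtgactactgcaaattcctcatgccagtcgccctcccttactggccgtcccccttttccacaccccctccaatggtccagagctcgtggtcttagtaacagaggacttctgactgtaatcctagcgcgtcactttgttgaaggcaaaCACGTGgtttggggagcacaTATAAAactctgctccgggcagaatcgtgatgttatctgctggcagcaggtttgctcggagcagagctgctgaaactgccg
Inhba: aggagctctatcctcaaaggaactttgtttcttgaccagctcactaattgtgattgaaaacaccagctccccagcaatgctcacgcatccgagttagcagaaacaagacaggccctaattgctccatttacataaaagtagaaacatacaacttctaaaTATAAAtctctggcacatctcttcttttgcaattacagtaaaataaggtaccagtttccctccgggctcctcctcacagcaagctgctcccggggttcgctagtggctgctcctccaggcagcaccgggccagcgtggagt
Tgfbr2: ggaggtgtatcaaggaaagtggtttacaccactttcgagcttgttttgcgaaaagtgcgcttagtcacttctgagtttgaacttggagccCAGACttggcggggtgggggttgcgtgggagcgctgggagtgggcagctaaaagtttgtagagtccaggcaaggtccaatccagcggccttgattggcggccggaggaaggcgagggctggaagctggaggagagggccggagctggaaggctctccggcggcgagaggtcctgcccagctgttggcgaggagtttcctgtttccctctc
Tgfb1: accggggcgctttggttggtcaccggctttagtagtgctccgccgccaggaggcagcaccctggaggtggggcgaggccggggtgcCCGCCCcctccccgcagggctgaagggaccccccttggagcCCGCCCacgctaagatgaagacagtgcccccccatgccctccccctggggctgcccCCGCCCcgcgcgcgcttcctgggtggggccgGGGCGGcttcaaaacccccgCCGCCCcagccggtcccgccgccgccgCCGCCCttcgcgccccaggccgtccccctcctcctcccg
The Tgfb2 window held 2 matches to CAGAC, starting 221 and 204 bases before its annotated start. It also held an E-box 51 bases and a TATA box 31 bases before that start. The Tgfbr2 window held 1 CAGAC, 160 bases before the start, and the Inhba window held a TATA box 91 bases before the start and no CAGAC. The Tgfb1 window held neither of these motifs and 6 GC boxes, at a G and C content of 77.0%, against 54.3% for Tgfb2, 59.0% for Tgfbr2 and 47.7% for Inhba. No matches overlapped in these windows. Of all 32851 promoter windows of this length, 49.6% held CAGAC, 35.7% the GC box, 13.6% the TATA box and 7.15% the E-box, so a CAGAC match is found in about every other promoter. The palindrome, the AP-1 site and the cAMP response element, held by 0.213%, 7.81% and 1.79% of windows, had no match in the 4 windows.

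The arrays were alike in scale, with medians between 4.29 and 4.33 (log2) and correlations over all probe sets between 0.979 and 0.988. Cited4 itself was at 5.26, 5.15, 4.83 and 5.02 (log2 signal) in knockout replicates 1 to 4, against 5.89, 5.76, 6.05 and 6.22 in control replicates 1 to 4. Its difference of -0.91 ± 0.12 (log2, SE) had an exact two-sided permutation p of 0.0286, the smallest that 4 against 4 arrays allow, and an adjusted p of 0.277 with limma. Whether its probes lie in the deleted part is not stated in the sources used here. Ventricular cardiomyocyte markers were high on every array, with a mean over 8 genes of 11.05 to 11.42 in knockout and 11.33 to 11.41 in control hearts. Their lowest means were those of knockout replicates 1 (11.05) and 4 (11.15). Of the 8 markers 6 were lower in knockout hearts, 3 of them (Myh6, Myl2 and Myl3) at an unadjusted p under 0.05, and Myh7 was higher at that threshold. Knockout replicate 2 stood apart by the atrial genes Myl7, at 9.02, and Sln, at 9.31. On the other arrays Myl7 was at 4.03 to 5.04 and Sln at 2.75 to 4.98, in part below the filter at 3.80. Of the 6 atrial markers Myl4 was also highest on knockout replicate 2 (5.88), but Nppa (13.3), Dkk3 (6.72) and Myot (8.63) were not. Whether the samples held the same share of atrial tissue was not tested. Control replicate 1 stood apart from the other controls by its activated fibroblast markers, whose mean over 8 genes was 8.56 there, against 7.11 to 7.50 in the other control hearts.

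As a group, the ligand and receptor genes were higher on average in knockout hearts, led by Tgfb2, Inhba and Tgfb3, while the co-receptor gene Tgfbr3 was lower. Of the 10 genes 9 had a mean difference above 0, as 51.2% of all tested genes did, and 1 below 0, as 48.8% did. Their median difference was 0.20 (log2), against 0.00 for all tested genes. It was 0.31 without control replicate 1, 0.14 without knockout replicate 1 or control replicate 3, and 0.10 without knockout replicates 1 and 4. None of the 10 passed limma's test at an adjusted p of 0.05, and none of the 15086 genes did (0.0% called, and likewise 0.0% at 0.1). At an unadjusted p under 0.05 in limma, 3 of the 10 were higher, where 5.64% of all genes were, and 1 was lower, where 5.61% were. At either direction 4 of the 10 passed this unadjusted threshold, against 11.2% of all genes. In none of the 10 did the values of the groups keep apart, as they did in 5.23% of all genes (2.33% higher and 2.90% lower). The 10 genes were chosen with earlier results of these data known, so these shares describe them and are no evidence of their own.

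**Figure D1:**
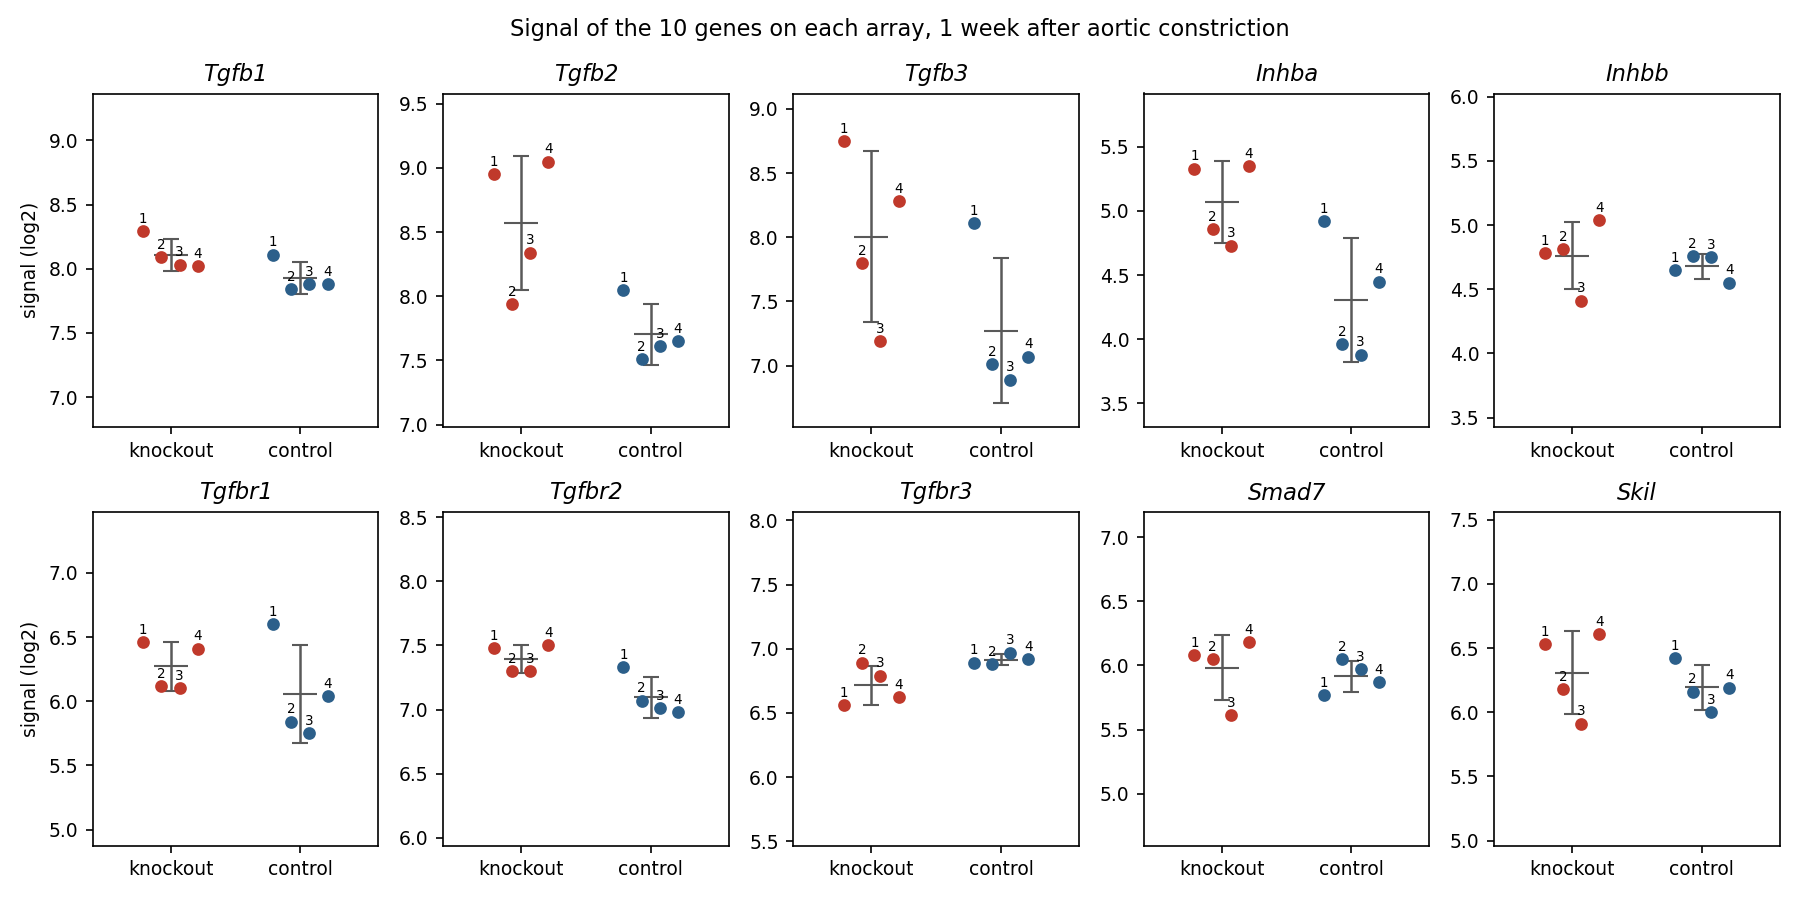
Signal (log2) of each of the 10 genes on the 4 knockout arrays (red, left) and the 4 control arrays (blue, right), with the replicate number at each point and the group mean ± SD in grey; every panel spans the same number of log2 units. Knockout replicates 1 and 4 are high for Tgfb2, Tgfb3 and Inhba, and control replicate 1 lies above the other controls in these 3 genes.

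Among the ligands, Tgfb2 (Entrez gene 21808) had the smallest p-value of the 10 genes. TGF-beta 2 is the isoform that depends most on betaglycan for binding the type II receptor. Its signal was 8.95, 7.94, 8.34 and 9.05 (log2) in knockout replicates 1 to 4, against 8.05, 7.51, 7.61 and 7.65 in control replicates 1 to 4. Knockout replicates 1, 3 and 4 were above every control heart, and knockout replicate 2 was above 3 of the 4 controls but below control replicate 1. The means were 8.57 ± 0.52 in knockout and 7.70 ± 0.24 in control hearts (SD, n = 4 each), a difference of 0.87 ± 0.23 (log2, SE; 95% interval 0.35 to 1.38) or 1.82-fold. Limma's p was 3.65e-03 unadjusted and 0.421 adjusted over all genes, and the exact permutation p was 0.0571. The difference was 1.08 without knockout replicate 2, the array with high Myl7 and Sln, and 0.44 without knockout replicates 1 and 4.

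Tgfb3 (Entrez gene 21809), the isoform that was the most variable of the 3, was at 8.75, 7.80, 7.19 and 8.28 in knockout replicates 1 to 4, against 8.11, 7.01, 6.89 and 7.07 in control replicates 1 to 4. The groups overlapped widely, because control replicate 1 was above knockout replicates 2 and 3. The difference of 0.73 ± 0.34 (log2, SE; 95% interval -0.031 to 1.50) had an adjusted p of 0.457 with limma and an exact permutation p of 0.171. It was 1.01 without control replicate 1 and 0.22 without knockout replicates 1 and 4. Tgfb1 (Entrez gene 21803), the isoform most often studied in fibrosis, varied least of the 3. Its signal was 8.29, 8.09, 8.03 and 8.02 in knockout hearts, against 8.11, 7.84, 7.88 and 7.88 in control hearts. Here too control replicate 1 was the only control within the knockout range, and the difference was 0.18 ± 0.09 (log2, SE; adjusted p = 0.484 with limma, exact permutation p = 0.114).

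Whether the isoforms differed in their response was tested on the log2 ratio of each pair of genes within an array. The difference of Tgfb2 exceeded that of Tgfb1 by 0.69 ± 0.26 (log2, SE), with an exact permutation p of 0.0571 and an adjusted p of 0.133 over the 7 pairs of genes compared. For Tgfb3 against Tgfb1 the excess was 0.55 ± 0.37 (exact permutation p = 0.229, adjusted p = 0.320), and for Tgfb2 against Tgfb3 it was 0.14 ± 0.29 (exact permutation p = 0.657, adjusted p = 0.657). With 4 against 4 arrays the smallest exact p is 0.0286, which a single pair cannot bring under 0.05 after adjustment over 7 pairs, so these p-values do not show that the isoforms responded alike.

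Of the activin subunits, Inhba (Entrez gene 16323), which encodes the beta A chain of activin A, was higher on average in knockout hearts, and Inhbb (Entrez gene 16324), which encodes the beta B chain, lay close to 0. Inhba was at 5.33, 4.86, 4.73 and 5.35 in knockout replicates 1 to 4, against 4.92, 3.96, 3.88 and 4.45 in control replicates 1 to 4. Every knockout heart was above control replicates 2, 3 and 4, and knockout replicates 2 and 3 were below control replicate 1. The means were 5.07 ± 0.32 in knockout and 4.30 ± 0.48 in control hearts (SD, n = 4 each), a difference of 0.76 ± 0.23 (log2, SE; 95% interval 0.25 to 1.28) or 1.70-fold. Limma gave a p of 8.10e-03 unadjusted and 0.421 adjusted, and the exact permutation p was 0.0857. The lowest Inhba values lie close to the filter on low signals, set at 3.80 (log2), where differences on an array tend to be understated. Inhbb was at 4.78, 4.81, 4.41 and 5.04 in knockout hearts, against 4.65, 4.76, 4.75 and 4.55 in control hearts. Its knockout values lay on both sides of the controls, with a difference of 0.08 ± 0.12 (log2, SE; 95% interval -0.19 to 0.36; adjusted p = 0.825 with limma). The excess of Inhba over Inhbb was 0.68 ± 0.30, with an exact permutation p of 0.0571 and an adjusted p of 0.133 over the 7 pairs.

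Of the receptor genes Tgfbr2 and Tgfbr1 were higher and Tgfbr3 lower on average in knockout hearts. Tgfbr2 (Entrez gene 21813), the ligand-binding type II receptor gene, was at 7.48, 7.30, 7.30 and 7.50 in knockout replicates 1 to 4, against 7.33, 7.07, 7.01 and 6.98 in control replicates 1 to 4. Knockout hearts spanned only 0.20, and the one control inside that span was control replicate 1. The difference was 0.30 ± 0.10 (log2, SE; 95% interval 0.08 to 0.52) or 1.23-fold, with an adjusted p of 0.421 with limma and an exact permutation p of 0.0857. Tgfbr1 (Entrez gene 21812), the signalling type I receptor gene, was at 6.46, 6.12, 6.10 and 6.41 in knockout hearts, against 6.60, 5.84, 5.75 and 6.04 in control hearts. Its highest value of all was that of control replicate 1, and the difference of 0.22 ± 0.18 (log2, SE; adjusted p = 0.642 with limma) became 0.40 without that array. It was 0.12 without control replicate 3, 0.15 without control replicate 2 and 0.06 without knockout replicates 1 and 4. Tgfbr3 (Entrez gene 21814), the betaglycan gene, was at 6.56, 6.89, 6.79 and 6.62 in knockout hearts, against 6.89, 6.88, 6.97 and 6.92 in control hearts. Knockout replicates 1, 3 and 4 were below every control, and knockout replicate 2 was level with the lowest controls. Its difference was -0.20 ± 0.09 (log2, SE; 95% interval -0.40 to -0.0038), which is 87.0% of the control signal, with an adjusted p of 0.444 with limma and an exact permutation p of 0.0857. It was -0.26 without knockout replicate 2 and -0.07 without knockout replicates 1 and 4. The difference of Tgfbr2 exceeded that of Tgfbr3 by 0.50 ± 0.16 (exact permutation p = 0.0571, adjusted p = 0.133), and that of Tgfbr1 exceeded it by 0.42 ± 0.26 (exact permutation p = 0.143, adjusted p = 0.250). Between Tgfbr2 and Tgfbr1 the excess was 0.08 ± 0.13 (exact permutation p = 0.600, adjusted p = 0.657).

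**Figure D2:**
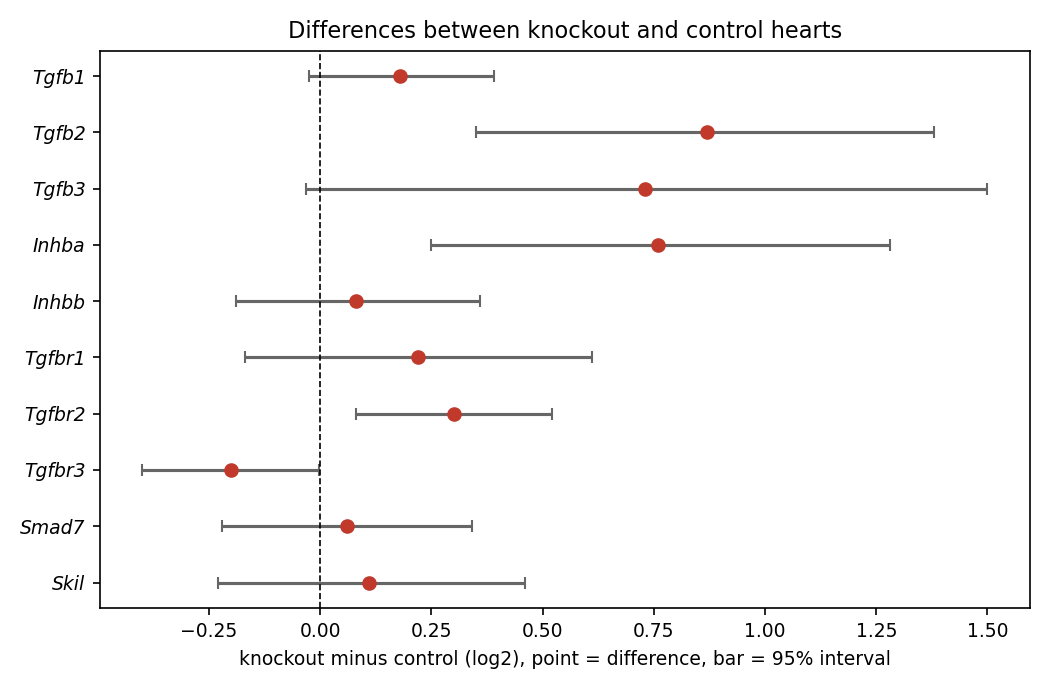
Difference between knockout and control hearts (log2, knockout minus control) for the 10 genes, with limma's 95% intervals over 4 against 4 arrays. The intervals of Tgfb2, Inhba and Tgfbr2 lie above 0, that of Tgfbr3 ends just below 0, and the other 6 cross 0.

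The feedback genes, which are induced by SMAD signalling, did not differ beyond the spread between samples. Smad7 (Entrez gene 17131) was at 6.08, 6.05, 5.61 and 6.18 in knockout replicates 1 to 4, against 5.77, 6.05, 5.97 and 5.87 in control replicates 1 to 4. Knockout replicate 3 was the lowest of all 8 arrays and knockout replicate 4 the highest, and the difference was 0.06 ± 0.13 (log2, SE; 95% interval -0.22 to 0.34; adjusted p = 0.873 with limma). Skil (Entrez gene 20482) was at 6.53, 6.18, 5.91 and 6.61 in knockout hearts, against 6.42, 6.16, 6.00 and 6.19 in control hearts. It had the same extremes, with a difference of 0.11 ± 0.16 (95% interval -0.23 to 0.46; adjusted p = 0.805 with limma). Both intervals include changes of the size seen for Tgfbr2, so a shift of that size could not be told from none.

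Samples of the same group differed widely in several of these genes. Knockout replicate 4 was the highest of the 8 arrays for 6 of the 10 genes, and knockout replicate 1 for 2. The mean deviation of the 10 genes from their means over the arrays was 0.36, 0.04, -0.12 and 0.34 (log2) in knockout replicates 1 to 4, against 0.12, -0.25, -0.29 and -0.20 in control replicates 1 to 4. Control replicate 1 was therefore above knockout replicates 2 and 3 by this measure. Left out of the comparison, an alternative chosen after seeing the data, it left 6 genes (Tgfb1, Tgfb2, Tgfb3, Inhba, Tgfbr1 and Tgfbr2) in which all 4 knockout hearts were above the other 3 controls, as in 7.28% of all genes. Without knockout replicate 2 the groups kept apart in Tgfb2, higher, and Tgfbr3, lower (13.0% of all genes in either direction), and without knockout replicate 3 in Inhbb, higher (5.39% higher). They did so in none of the 10, against the share of all genes in either direction, without knockout replicate 1 (6.89%) or 4 (7.27%), or control replicate 2 (7.11%), 3 (7.62%) or 4 (7.81%). No gene passed limma's adjusted threshold without control replicate 1, where the adjusted p was 0.262 for Tgfb2, Tgfb3, Inhba, Tgfbr1 and Tgfbr2 alike. Nothing in the labels sets control replicate 1 aside.

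**Figure D3:**
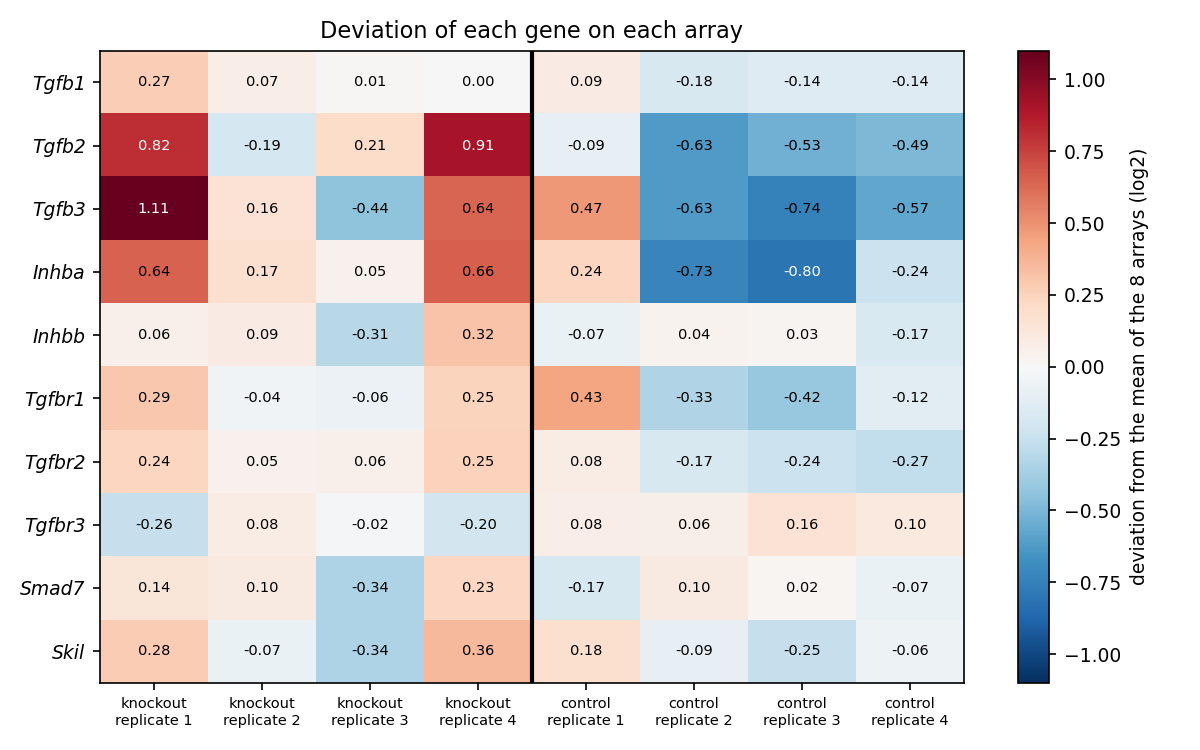
Deviation of each gene (rows) from its mean over the 8 arrays (log2), with the 4 knockout arrays left of the black line and the 4 control arrays right of it. Red columns at knockout replicates 1 and 4 and the partly red column at control replicate 1 show that Tgfb2, Tgfb3, Inhba and the receptor genes vary from array to array. The Tgfbr3 row has the opposite colours at knockout replicates 1 and 4.

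The mean level of the fibroblast activation markers was highest on 3 arrays, knockout replicates 1 and 4 and control replicate 1. All 8 of the 8 activated fibroblast markers had a higher mean in knockout hearts, 0 passed limma's adjusted threshold, and their mean level ran from 7.62 to 9.08 in knockout and from 7.11 to 8.56 in control hearts. It was 9.04, 8.27, 7.62 and 9.08 in knockout replicates 1 to 4, against 8.56, 7.11, 7.19 and 7.50 in control replicates 1 to 4. The same 3 arrays were the highest for Tgfb3, Inhba, Tgfbr1, Tgfbr2 and Skil, but not for Tgfb1, Tgfb2, Inhbb, Tgfbr3 or Smad7. The mean level of the smooth muscle markers was also highest there, with 2 of 5 genes higher on average in knockout hearts. It was 8.40, 7.41, 7.25 and 8.04 in knockout replicates 1 to 4, against 7.85, 7.11, 7.40 and 7.52 in control replicates 1 to 4. Cnn1, Tagln and Myh11 were highest on these arrays, whereas Acta2 was highest on control replicate 3 (10.91). Smtn was lowest on knockout replicate 4 (7.76). Of the valve interstitial markers 3 of 3 tested were higher, at 5.95, 5.71, 5.26 and 6.18 in knockout hearts, against 5.83, 4.88, 4.97 and 5.19 in control hearts. This mean followed Fmod, at 8.04, 6.97, 5.78 and 8.03 in knockout hearts, against 7.64, 4.85, 4.95 and 5.54 in control hearts. Wif1 (4.58 to 5.04) and Cldn11 (5.01 to 5.71) varied much less over the arrays, and Hapln1 and Tnmd were not among the tested genes. The 8 general fibroblast markers had 5 higher and 3 lower, with a mean level of 8.66 to 8.94 in knockout and 8.53 to 8.85 in control hearts. Markers of macrophages and monocytes, which also make TGF-beta 1, had 7 of 8 higher, with levels of 7.86 to 8.23 in knockout and 7.70 to 8.08 in control hearts. Endothelial markers had 3 of 8 higher, at 8.18 to 8.48 in knockout and 8.24 to 8.39 in control hearts, and platelet markers 2 of 4, at 5.26 to 5.47 in knockout and 5.23 to 5.58 in control hearts. No marker was at 0 on this scale, but 5 of the 7 lymphocyte and 3 of the 5 neutrophil markers were not among the tested genes. In whole hearts more cells of a type and more RNA per cell cannot be told apart, and the part of cell composition in these differences was not tested.

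By Pearson r over the 8 arrays, Tgfb1, Tgfb2, Tgfb3 and Inhba each varied together with the receptor gene Tgfbr2. Tgfb3 and Inhba also varied with Tgfbr1, and Inhbb with Smad7. For Tgfb1 and Tgfbr2 Spearman rho was only 0.64 (exact permutation p = 0.0962, adjusted p = 0.188). Their r was 0.37 within knockout and 0.93 within control hearts. Of the 45 pairs among the 10 genes, 16 had an adjusted exact permutation p under 0.05 for Pearson r. Of these, 13 had a positive and 3 a negative correlation. The share of such pairs among all tested genes was not computed, so whether the count is particular to these 10 was not tested. Apart from Tgfb3 with Skil and Inhbb with Smad7, the positive pairs lay among Tgfb1, Tgfb2, Tgfb3, Inhba, Tgfbr1 and Tgfbr2. By Spearman rho the 3 negative pairs did not pass the adjusted threshold. Nor did Tgfb3 with Skil, or Tgfb1 with Tgfb3, Inhba and Tgfbr2. Tgfb1 with Tgfbr1 passed by rho alone. The points of each pair share an array and its RNA, so cell composition and RNA quality enter both axes. The permutations ignored the groups, so a difference between knockout and control hearts in both genes also enters r and its p. After removal of the group means, r with Tgfbr2 was 0.68 for Tgfb1, 0.88 for Tgfb3 and 0.82 for Inhba. Tgfb2 and Tgfbr2 had Pearson r = 0.92 (exact permutation p = 2.80e-03, adjusted p = 0.0208) and Spearman rho = 0.88 (exact permutation p = 7.24e-03, adjusted p = 0.0326) over n = 8 arrays. After removal of the group means r was 0.80, and without the arrays farthest from the median of Tgfb2, knockout replicates 1 and 4, it was 0.85 (exact permutation p = 0.0750, n = 6). Tgfb3 and Tgfbr1 had r = 0.89 (exact permutation p = 3.82e-03, adjusted p = 0.0208) and rho = 0.93 (exact permutation p = 2.23e-03, adjusted p = 0.0326), with r = 0.88 after removal of the group means and 0.90 without knockout replicates 1 and 4 (exact permutation p = 1.39e-03).

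The 3 negative pairs all contained Tgfbr3. Against Tgfb2, the ligand it presents, r was -0.94 (exact permutation p = 2.31e-03, adjusted p = 0.0208) and rho was -0.74 (exact permutation p = 0.0458, adjusted p = 0.109), and r was -0.88 after removal of the group means. Without knockout replicates 1 and 4 it was -0.75 (exact permutation p = 0.0819, n = 6). For Tgfb3 and Tgfbr3 r was -0.78 (exact permutation p = 0.0174, adjusted p = 0.0489) and rho -0.74 (exact permutation p = 0.0458, adjusted p = 0.109). It was -0.16 without the same hearts (exact permutation p = 0.710), so that relation rests on them. Tgfbr2 and Tgfbr3 had r = -0.83 (exact permutation p = 0.0096, adjusted p = 0.036) and rho = -0.83 (exact permutation p = 0.0154, adjusted p = 0.0577). After removal of the group means r was -0.63 for Tgfbr2 and Tgfbr3 and -0.65 for Tgfb3 and Tgfbr3. Within the control hearts alone Tgfbr3 spanned only 0.09. There r of Tgfb2 and Tgfbr3 was -0.25, against -0.97 within the knockout hearts. Inhbb and Smad7 had r = 0.92 (exact permutation p = 8.68e-04, adjusted p = 0.0208) and rho = 0.90 (exact permutation p = 4.56e-03, adjusted p = 0.0326), the same r of 0.92 after removal of the group means, and 0.80 without knockout replicates 3 and 4 (exact permutation p = 0.0444). The number of pairs past the adjusted threshold varied with the hearts left out, while r changed less. It was 0 without knockout replicate 1 or without control replicate 3, where 7 arrays remain and the lowest adjusted exact permutation p was 0.0536 and 0.0569, 4 without control replicate 2, 5 without control replicate 4 and 10 without knockout replicate 2. With any 1 array left out, r was 0.90 to 0.95 for Tgfb2 and Tgfbr2, 0.86 to 0.93 for Tgfb3 and Tgfbr1, -0.98 to -0.92 for Tgfb2 and Tgfbr3 and 0.86 to 0.94 for Inhbb and Smad7.

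**Figure D4:**
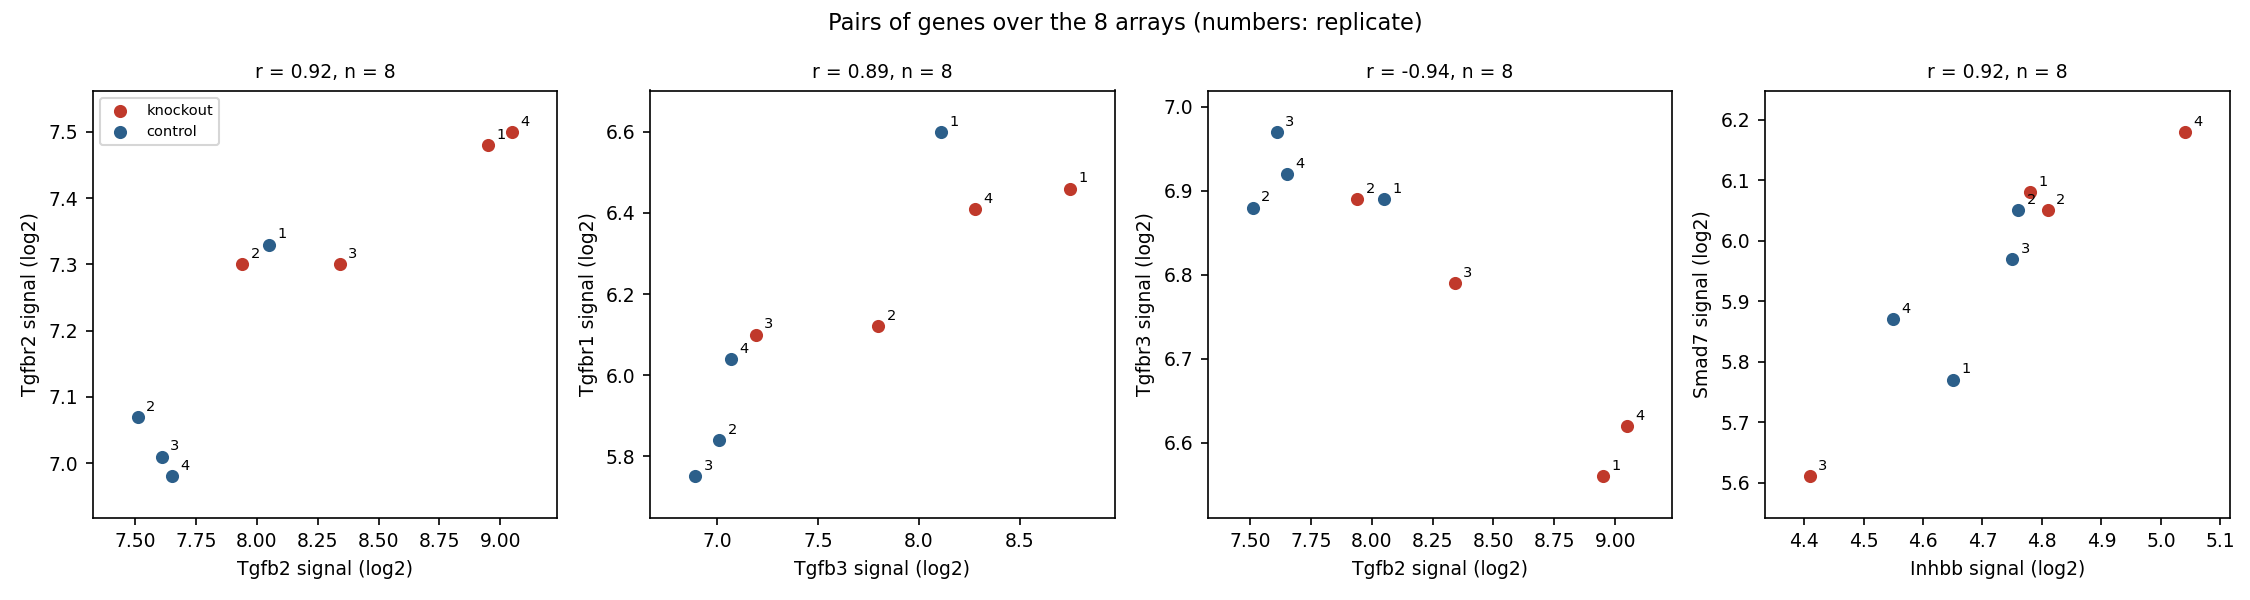
Signal (log2) of 4 pairs of genes on each of the 8 arrays, knockout in red and control in blue, with the replicate number at each point. Tgfb2 and Tgfbr2 (r = 0.92) and Tgfb3 and Tgfbr1 (r = 0.89) run together, Tgfb2 and Tgfbr3 (r = -0.94) run against each other with knockout replicates 1 and 4 at the far end, and Inhbb and Smad7 (r = 0.92) run from knockout replicate 3 to knockout replicate 4.

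Outside the 10 genes, the genes most like each of them over n = 8 arrays were taken by the highest Pearson r among 15076 others, a choice that makes a high value certain and carries no test. For Tgfb2 these were Gadd45g, a stress-induced growth arrest gene, at 0.992, the matricellular gene Ccn1 at 0.990 and Maea at 0.984. Ccn1 differed by 0.85 ± 0.23 (log2, SE) and Gadd45g by 0.66 ± 0.19, both near the 0.87 of Tgfb2. For Tgfb3 they were Itgb5, an integrin subunit that pairs with alpha v, at 0.998, Col1a1, the alpha 1 chain of type I collagen, at 0.997 and the fibronectin gene Fn1 at 0.995. Those of Inhba were Ubtd2, Ggh and Slfn2 at 0.980 to 0.984, and those of Tgfbr2 included Pdgfc, a growth factor gene for mesenchymal cells, at 0.979. For Tgfbr3 they were Aamdc at 0.996, Pitpnc1 at 0.994 and Myoz2, a Z-disc gene of striated muscle, at 0.991. The nearest genes to Inhbb and Smad7 reached 0.961 and 0.954.

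The rest of the pathway was read from 9 lists by role, with 97 tested genes when each is counted once. None passed limma's adjusted threshold, and 72 were higher and 25 lower on average in knockout hearts, where 51.2% of all tested genes were higher. At an unadjusted p under 0.05, 26 (26.8%) were higher and 5 lower, where 5.64% of all genes were higher and 5.61% lower. Genes of the latent complex and its activation had a higher mean for 16 of 17 genes (median difference 0.35, log2), with 3 higher and 1 lower at an unadjusted p under 0.05 (limma). Among them Ltbp2, a matrix protein of the latent TGF-beta binding protein family, differed by 1.18 ± 0.51 (SE) and Itgb8, whose integrin activates latent TGF-beta, by 0.45 ± 0.17. Itgb6, the partner of alpha v in the epithelial activating integrin, differed by -0.48 ± 0.17. Extracellular antagonists were higher in 6 of 8 cases (median 0.20), 4 of them at an unadjusted p under 0.05, among them Fst, the activin-binding follistatin gene (0.44 ± 0.16), Fstl1 (0.55 ± 0.18) and the proteoglycan gene Bgn (0.38 ± 0.14).

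Intracellular components were mixed. Of all tested genes 51.2% had a higher mean, 11.2% an unadjusted p under 0.05 in either direction and 5.23% no overlap between the groups. The genes named here had the smallest p of their lists, a choice that favours groups without overlap. The other 7 SMAD genes had 3 higher and 4 lower (median -0.05), and the one at an unadjusted p under 0.05 was Smad9, a BMP-branch SMAD, at 4.40 ± 0.23 in knockout and 4.80 ± 0.08 in control hearts (SD, n = 4 each), a difference of -0.39 ± 0.11 with no overlap between the groups. Of 11 intracellular inhibitors and co-repressors 7 were higher (median 0.02), 3 higher and 1 lower at an unadjusted p under 0.05, with the co-repressor gene Tgif2 at 0.36 ± 0.09 and the phosphatase gene Ppm1a at -0.21 ± 0.07, each with no overlap. The other 10 receptors had 6 higher (median 0.08) and 1 at an unadjusted p under 0.05, Cd109, a TGF-beta co-receptor gene (0.64 ± 0.28). Of 9 other ligands 5 were higher (median 0.03), and Gdf10, Bmp4 and Gdf6 differed by 0.27 ± 0.09, 0.33 ± 0.12 and 0.53 ± 0.22, Gdf10 with no overlap.

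Known target genes of TGF-beta had a higher mean for 24 of 25 genes (median difference 0.36), where 51.2% of all tested genes did. The 1 gene with a lower mean was Acta2, with a difference of -0.23 (log2). At an unadjusted p under 0.05, 13 were higher and 0 lower, where 5.64% and 5.61% of all genes were. Ccn2, the connective tissue growth factor gene, was at 9.87 ± 0.59 in knockout and 8.86 ± 0.40 in control hearts (SD, n = 4 each), a difference of 1.01 ± 0.28 (SE) with no overlap, and Snai1 differed by 0.27 ± 0.09. Of the 25 targets 2, Ltbp2 and Postn, are also on the list of activated fibroblast markers, and 2, Acta2 and Tagln, on that of smooth muscle markers. The mean level of the targets was highest on knockout replicates 1 and 4 and on control replicate 1, at 8.46, 7.84, 7.76 and 8.37 in knockout replicates 1 to 4, against 7.98, 7.40, 7.46 and 7.58 in control replicates 1 to 4. BMP target genes were higher in 5 of 8 cases (median 0.16), with Atoh8 at 0.41 ± 0.09 and no overlap, and Id1 at -0.35 ± 0.12. Besides Cited4, the CITED and CBP/p300 list held Crebbp at -0.09 ± 0.07 with no overlap, and Cited1 at 0.14 ± 0.11. Of all tested genes 5.23% had no overlap between the groups, and the genes named here were picked by their small p.

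**Figure D5:**
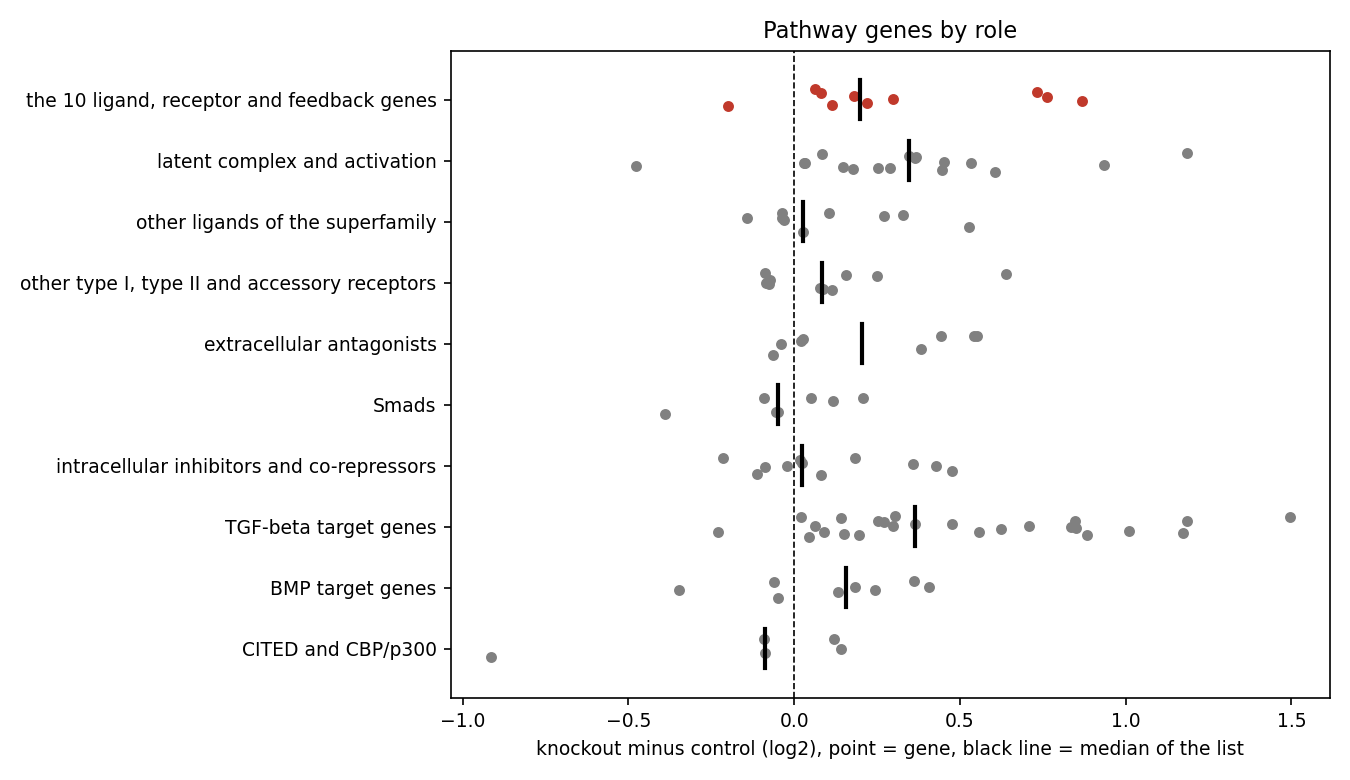
Difference between knockout and control hearts (log2, knockout minus control) of each tested gene, by role in the pathway, with the median of each list as a black line; the 10 ligand, receptor and feedback genes are in red. The lists with medians farthest above 0 are the TGF-beta targets (0.36) and the latent complex genes (0.35), while SMADs and intracellular inhibitors lie around 0.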

How the data were processed

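Expression was measured on Affymetrix arrays of total RNA from frozen hearts, 4 knockout and 4 control. The series matrix as deposited by the authors holds 41345 probe sets on a log2 scale. RMA (background correction, quantile normalization and probe summary) and limma, with no version of either, are listed per the submitters' processing notes. Quantile normalization hides a shift common to all genes and can compress the highest signals. The sources used here do not give the array's genome build, batches or scan dates.

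In the platform annotation 23521 probe sets had 1 symbol, 1814 had several and 16010 had none. Of those with 1 symbol, 23328 matched RefSeq by Entrez identifier. The probe set with the highest mean stood for a gene, and 15086 of 22180 genes passed a filter on mean signal at 3.80 (log2), the 40th percentile over probe sets. Knockout minus control was tested with limma 3.58.1 in R 4.3.3 (lmFit and eBayes, no trend), with Benjamini-Hochberg adjustment over all tested genes at 0.05. Errors of differences are limma's moderated standard errors, while those between pairs of genes come from the SDs of within-array ratios. Exact two-sided permutation tests used the 70 assignments of arrays, and relations between genes all orders of the arrays. The limma step was tested on simulated data. The number of arrays limits the precision.

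The members, gene lists and alternatives were chosen with earlier results of these data known. The tests between pairs of genes and the overlap counts without single arrays were added after seeing the values. Named genes outside the 10 were up to 3 per list with the smallest p, and up to 3 per gene with the highest r. No pair of arrays was identical.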

Additional observations from a re-analysis of the deposited data

Results flagged for a closer look

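Control replicate 1 was far from the other 3 control hearts in 2 of the 22 sets of 4 values examined with Dixon's ratio, where chance flags about 1 in 20. In Tgfb1 it was at 8.11 (log2), and its gap to the next control made up 0.866 of the range of the group. In Tgfb3 it was also at 8.11, with a ratio of 0.856, and both ratios exceed the 95% critical value for 4 samples. Without it the difference was 0.24 ± 0.09 for Tgfb1 and 1.01 ± 0.30 for Tgfb3 (log2, SE; adjusted p = 0.299 and 0.262 with limma). The same array had high activated fibroblast markers, 8.56 on average against 7.11 to 7.50 in the other control hearts, and their part in the result was not tested.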

How the results depend on the processing

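No gene and none of the 10 passed an adjusted p of 0.05 under any alternative run: a stricter filter (60th percentile, which removes Inhba and Inhbb) or none, quantile or median scaling, mean of probe sets, trend with robust estimation, no moderation, array weights, a replicate block, each array left out, and knockout replicates 1 and 4 left out. A threshold of 0.1 called 0. The 10 genes have 1 probe set each, so no other could be tried. The labels do not say whether replicate numbers pair the arrays. Correlations of the deviations of same-numbered arrays were 0.359, 0.00866, 0.282 and -0.0253. Those of differently numbered arrays ran from -0.469 to 0.261. With the replicate block, differences were the same by construction, and no adjusted call changed. At an unadjusted p under 0.05 there were 5 of the 10 genes in place of 4, as Tgfb1 and Tgfb3 came in and Tgfbr3 dropped out (limma's adjusted p = 0.324, 0.146 and 0.359). The count over all tested genes rose as well, to 2177 with the block from 1697 without the block. The SE under the replicate block was 0.14 for Tgfb3 and 0.11 for Inhba, against 0.34 and 0.23 without the block. Directions held for Tgfb1, Tgfb2, Tgfb3, Inhba, Tgfbr1, Tgfbr2 and Tgfbr3 throughout. Those of Inhbb and Smad7 reversed without knockout replicate 4 (-0.011 and -0.0046; highest without knockout replicate 3, 0.20 and 0.19) and, with Skil, without knockout replicates 1 and 4 (-0.06, -0.09 and -0.15). In that last setting the unadjusted count was 1 of the 10 and 617 of all genes, and the median difference was 0.10 for the 10 genes, and list medians were 0.18 for TGF-beta targets, 0.07 for the latent complex, 0.03 for antagonists, 0.07 for BMP targets and -0.06 for the CITED list. Leaving out single arrays gave 987 to 2390 genes at an unadjusted p under 0.05 (1697 with all), 0 to 6 of the 10 without overlap and 0 to 19 related pairs (16 with all), and no pair without knockout replicates 1 and 4. Without a filter the antagonists' median was 0.08. Fewer arrays remain in these settings, and the cause was otherwise not tested.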
